A study of Arabidopsis thaliana with 15 samples.

Results

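The plastid and the mitochondrion each carry a small genome of their own, and 92 probe sets of the array that match a single gene of either genome are described here. They stand for 85 genes: 69 plastid genes with 1 probe set each, matched by gene identifier, and 16 mitochondrial genes with 23 probe sets, matched by gene symbol. In all, 22746 probe sets were tested. The plastid members encode 5 subunits of photosystem I, 15 of photosystem II, 6 of the cytochrome b6f complex, 10 of the NADH dehydrogenase-like complex (NDH), 6 of the ATP synthase, 4 of the plastid RNA polymerase, 15 ribosomal proteins and 8 other proteins. The mitochondrial members encode 8 subunits of respiratory complex I (15 probe sets, of which 7 match nad1 and 2 match nad5), 2 subunits of complex IV, 4 proteins of cytochrome c maturation, and matR and mttB. No member stands for cob, atp1 or the organelle ribosomal RNAs.

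Plastid genes are transcribed by a bacterial-type polymerase, whose core subunits the plastid encodes itself, and by phage-type polymerases encoded in the nucleus, and mitochondrial genes by phage-type polymerases alone. Many plastid genes lie in clusters that are transcribed together and cut into smaller RNAs. In roots most plastids are non-green, with little photosynthesis, yet they keep a copy of the same genome, while mitochondrial respiration supplies most of the energy. Organelle RNAs mostly lack the long poly(A) tails of nuclear messenger RNAs, and short tails mark them for degradation. The Affymetrix two-cycle protocol starts from an oligo(dT) primer, and how that bears on the organelle signals was not tested.

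The cells were protoplasts from roots of 6-day-old Arabidopsis thaliana seedlings, sorted by fluorescence with gates set against red autofluorescence. Cells with pAtHB15:YFP, labelled provascular (the procambial precursors of vascular tissue), were measured after 2 h of 10 nM brassinolide (BL, a brassinosteroid hormone) on 2 arrays and as controls on 3 arrays. Cells with pWOL:GFP, labelled stele (the central cylinder, which contains the provascular cells), were measured as controls and after 0.5, 1, 2 and 4 h of BL on 2 arrays each. The groups are called ATHB15 and WOL after the promoter that drives the fluorescent protein, and the controls carry the same reporter. No mock transfer matched in time is named in the labels, the lines differ in promoter and reporter, and the line cannot be told apart from any batch in which its arrays were made.

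Signals are the deposited linear intensities, scaled to 1 trimmed mean on every array, and differences were taken on log2(signal + 16). Depth on an array is its share of probe sets called present, which was 49.5% to 59.6% over the 15 arrays, and the number of arrays limits the precision. WOL and ATHB15 themselves have no named probe set among those used, so only LHW, a transcription factor gene of vascular tissue, stood for 13 stele and provascular markers. It was called present on all 15 arrays, with signals of 1785, 878 and 1191 in ATHB15 controls and 809 and 1737 in WOL controls. Of 5 ground tissue markers 2 were measured, JKD, called present on 0 of 15 arrays, and SGN3, present on 12, and their summed signal was 9.4 to 52.4 in ATHB15 controls against 178.9 to 509.4 in WOL controls. Of 8 markers of epidermis and root cap 1 was measured, the root hair gene EXP7, at 2.2 to 87.3 in ATHB15 controls against 88.5 to 294.6 in WOL controls. No marker was listed at 0. The 3′ to 5′ signal ratio of GAPDH, a sign of RNA integrity, was 1.75 to 3.38 in ATHB15 controls and 2.71 to 4.66 in WOL controls. The same ratio of UBQ, a ubiquitin probe set, did not overlap, at 4.01 to 4.85 in ATHB15 controls and 5.07 and 7.43 in WOL controls. Nor did that of actin, at 12.8 to 26.8 in ATHB15 controls and 28.4 and 48.3 in WOL controls. The part of the actin ratio in the results was not tested.

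Transcripts of both genomes were lower in provascular than in stele cells. In ATHB15 controls the 92 members held 0.320% to 0.394% of the summed signal of an array, against 1.16% to 1.19% in WOL controls. Of the 69 plastid probe sets 39 were called present on all 3 ATHB15 control arrays, against 64 on both WOL control arrays. Of the 23 mitochondrial probe sets 9 were so called in ATHB15 controls and 15 in WOL controls. Across all 22746 probe sets the share present on every array of the group was 45.7% in ATHB15 controls and 48.3% in WOL controls, a much smaller gap. In sorted bulk RNA, fewer cells of a type and less RNA per cell cannot be told apart.

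**Figure D1:**
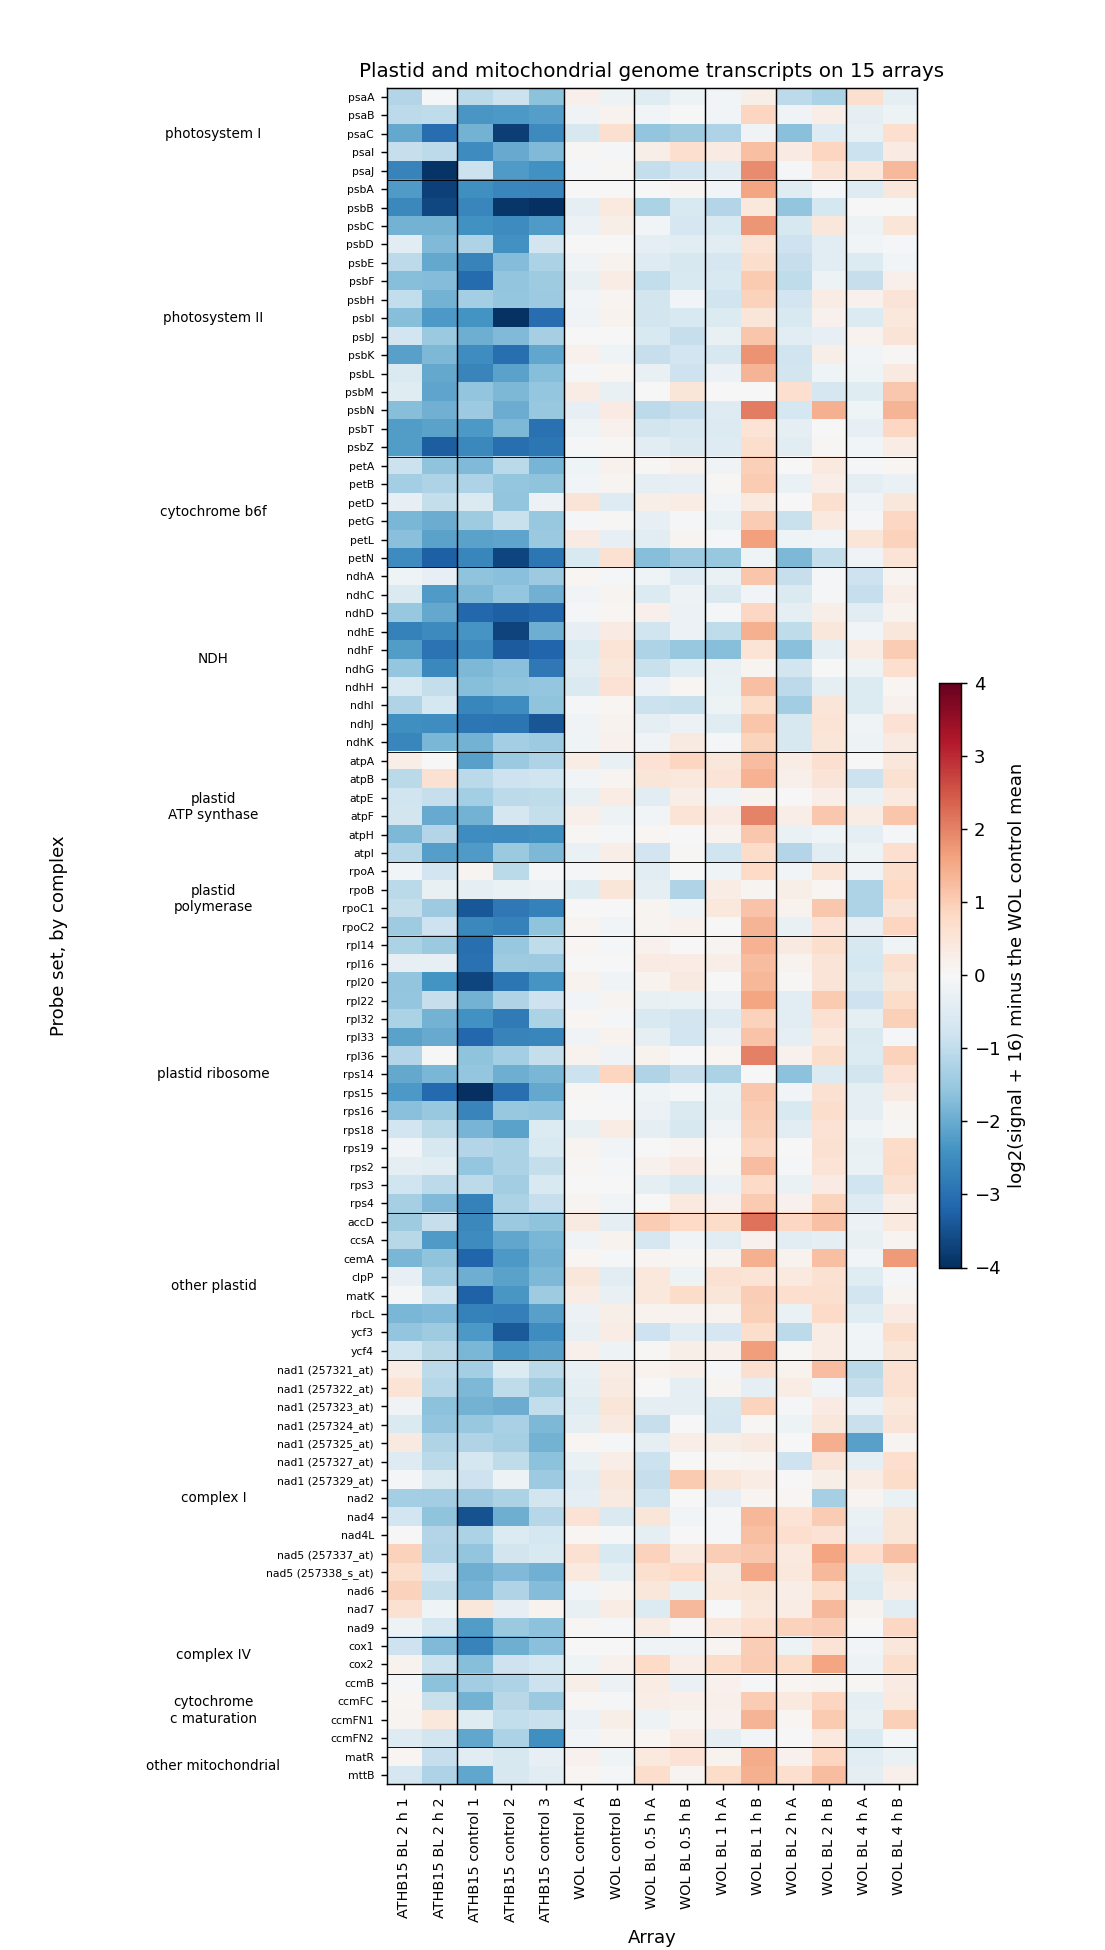
Each row is a probe set, grouped by complex, and each column an array. Colour gives log2(signal + 16) minus the mean of the WOL controls, on a scale that ends at 4 in either direction. The 5 ATHB15 columns are blue in most rows, but on ATHB15 BL 2 h 1 12 of 23 mitochondrial rows lie above the WOL control mean. Among the WOL columns the second array at 1 h stands out in red.

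The ATHB15 control was compared with the WOL control to ask how the provascular population differs from the stele without hormone. All 69 plastid members had a lower mean in ATHB15 controls, with a median log2 difference of -1.90, and 22 of 23 mitochondrial members did, with a median of -1.16. The median over all probe sets was -0.03. At an adjusted p under 0.05 (limma, Benjamini-Hochberg over all probe sets), 45 of the 92 members were called lower, 41 of them plastid and 4 mitochondrial, and 0 were called higher. Among all probe sets tested 2.69% were called lower and 0.229% higher, set against 48.9% of the members. The members made up 7.37% of the 611 probe sets called lower. Another 36 members had an unadjusted p under 0.05 in the same direction, which makes 81, beside 11.1% of all probe sets. Signals of the 2 groups did not overlap, with ATHB15 lower, for 86 members (66 plastid and 20 mitochondrial), a pattern met by 18.1% of all probe sets.

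**Figure D2:**
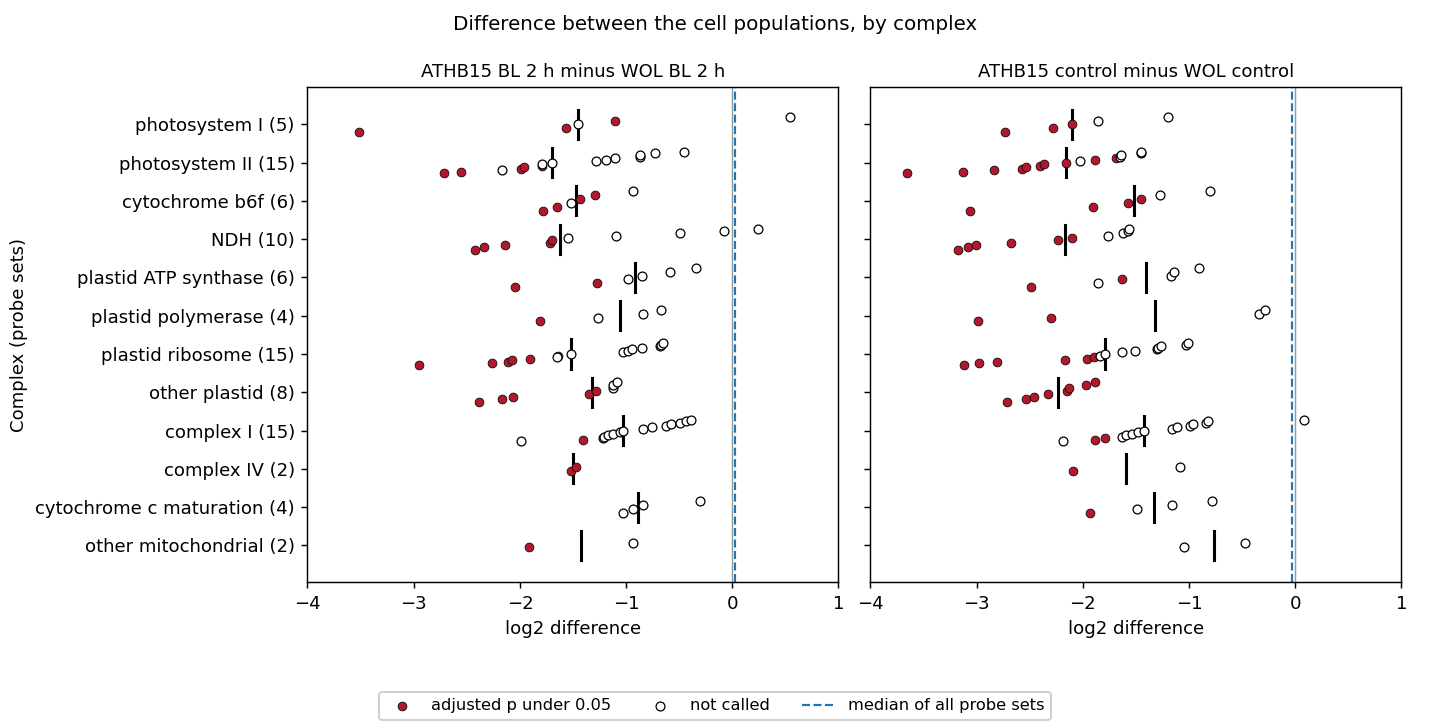
Points are probe sets, grouped by complex on the vertical axis, and the horizontal axis is the log2 difference between ATHB15 and WOL cells, after 2 h of BL at left and in controls at right. Filled points passed an adjusted p of 0.05, short bars are medians of a complex and the dashed line is the median of all probe sets. In the controls 91 of 92 points lie below 0.

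Photosystem I uses light to reduce ferredoxin, and its measured core subunits had a median log2 difference of -2.10, with 3 of 5 called lower. psaB (245006_at), which encodes a large reaction centre protein, had signals of 1010.3, 1034 and 1105 in ATHB15 controls and 4699 and 5678 in WOL controls (log2 difference -2.28, SE 0.31, adjusted p = 0.00231). The ATHB15 arrays lay within a narrow band, far below both WOL arrays. psaC, for the subunit that holds iron-sulfur clusters, fell too, at 84.8, 11.8 and 48.3 in ATHB15 controls against 225 and 566 in WOL controls (log2 difference -2.73, SE 0.59, adjusted p = 0.0247), and so did psaI (log2 difference -2.10, SE 0.39, adjusted p = 0.0124). psaJ at -1.86 was not called, and psaA, the partner of psaB, was called present on 0 of 15 arrays, so its probe set gives no fold.

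Photosystem II splits water, and 10 of its 15 measured genes were called lower, with a median of -2.16. psbB (244972_at), the gene of the inner antenna protein CP47, had signals of 57, 14.2 and 4.1 in ATHB15 controls and 320.2 and 573 in WOL controls (adjusted p = 0.00419). It was called absent on every ATHB15 control array, and set against the higher of its own signal and the lowest signal called present on each of those arrays it was at least 9.31-fold higher in WOL controls. Folds given below as "at least" were computed in the same way, for members absent throughout the dimmer group. Where the member's own signal was the higher on each of those arrays, as for psbA and ndhK in the controls, the fold is the measured difference. It then makes no allowance for the spread between arrays. The small subunit genes psbI (log2 difference -3.13, SE 0.47, adjusted p = 0.00362) and psbZ (log2 difference -2.84, SE 0.40, adjusted p = 0.00257) had the largest measured differences of the complex. psbZ had 359.5, 261 and 289.8 in ATHB15 controls and 2153 and 2345 in WOL controls, with no overlap.

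psbA, the gene of the D1 reaction centre protein, whose transcript is among the most abundant in green leaves, was absent on all ATHB15 control arrays. Its signals were 32.7, 27.4 and 26.8 there and 248 and 253 in WOL controls, at least 5.93-fold higher in the WOL controls (adjusted p = 0.0135). psbC, for the other inner antenna protein, was called lower (-2.40), as were psbE, psbJ, psbK and psbL, at -1.89, -1.69, -2.53 and -2.16. psbT was absent on the ATHB15 control arrays and at least 3.91-fold higher in WOL controls (adjusted p = 0.00986). Of the 5 photosystem II members not called, psbF, psbH, psbM and psbN had log2 differences of -2.03, -1.46, -1.64 and -1.65, and psbD, for the D2 reaction centre protein, was at least 2.17-fold higher in WOL controls.

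Between the photosystems, electrons pass through cytochrome b6f, and NDH returns electrons from ferredoxin to the same chain. In cytochrome b6f 4 of 6 members were called lower, with a median of -1.52. petN (245000_at), for a small subunit, had signals of 166, 70.9 and 133 in ATHB15 controls and 705 and 1684 in WOL controls (log2 difference -3.06, SE 0.50, adjusted p = 0.0054). petA, the cytochrome f gene, had 667, 1093 and 626 in ATHB15 controls and 2073 and 2616 in WOL controls (log2 difference -1.58, SE 0.38, adjusted p = 0.0392). Both ranges were separate. petB, for cytochrome b6, stood at -1.46 and petL at -1.90, both called, while petG at -1.27 and petD, for subunit IV, at -0.80 were not.

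NDH had 10 measured genes, all lower, with a median of -2.17 and 6 called. ndhD (244962_at), a membrane subunit, had the smallest adjusted p of all members, with 107, 98.1 and 107 in ATHB15 controls and 1011 and 1134 in WOL controls (log2 difference -3.18, SE 0.34, adjusted p = 0.000435). The 3 ATHB15 values were nearly equal, and both WOL values were several times higher. ndhJ was absent on all ATHB15 control arrays and at least 7.37-fold higher in WOL controls (adjusted p = 0.00316). ndhF, with 45.4, 19.3 and 23.3 in ATHB15 controls and 225 and 501 in WOL controls, ndhE (-2.67) and ndhI (-2.23) were called as well, and so was ndhG, at least 3.31-fold higher in WOL controls. The 4 members not called were ndhC at -1.76, ndhA at -1.57, and ndhH and ndhK, which were at least 1.9-fold and 2.98-fold higher in WOL controls.

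The plastid ATP synthase, which makes ATP from the proton gradient, was split. The genes of its catalytic head, atpA, atpB and atpE, code for the alpha, beta and epsilon subunits, and atpF, atpH and atpI for its membrane part. atpH (245026_at), for the ring subunit c, had 127, 124 and 131 in ATHB15 controls and 818 and 756 in WOL controls (log2 difference -2.49, SE 0.32, adjusted p = 0.00159), and atpA was called too (log2 difference -1.63, SE 0.36, adjusted p = 0.0272). The others were not called, with -1.17 for atpF, -1.14 for atpE, -0.91 for atpB, and atpI at least 2.73-fold higher in WOL controls. atpE kept high signals in both populations, 4280.0, 5363 and 5435 in ATHB15 controls against 8895 and 13631 in WOL controls.

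All 8 plastid members outside these complexes were called lower, with a median of -2.24. rbcL (245015_at), for the large subunit of the carbon-fixing enzyme Rubisco, had 128, 125 and 194 in ATHB15 controls and 784 and 1090.1 in WOL controls (log2 difference -2.53, SE 0.39, adjusted p = 0.00385). Genes with no part in photosynthesis were lower too. accD, for a subunit of the acetyl-CoA carboxylase that starts fatty acid synthesis, had 94.4, 217 and 202 in ATHB15 controls and 836 and 491 in WOL controls (log2 difference -1.89, SE 0.45, adjusted p = 0.0358), and clpP, for a protease subunit, had 1664, 1471 and 1887 in ATHB15 controls and 9005 and 4764 in WOL controls (log2 difference -1.97, SE 0.37, adjusted p = 0.0131). Neither pair of ranges overlapped. matK, for an intron maturase, stood at -2.33, ycf3, for a photosystem I assembly factor, at -2.72, ccsA, for cytochrome c synthesis in plastids, at -2.15, and cemA, for an envelope protein, at -2.46. ycf4, for another photosystem I assembly factor, was at least 4.38-fold higher in WOL controls.

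The polymerase genes differed among themselves. rpoC1 (244998_at), for a part of the beta′ subunit, had 93.9, 142 and 159.7 in ATHB15 controls and 1114 and 1154 in WOL controls (log2 difference -2.99, SE 0.46, adjusted p = 0.00409), and rpoC2 was also called (log2 difference -2.30, SE 0.48, adjusted p = 0.02). rpoA (244978_at), for the alpha subunit, was the exception among the well-measured plastid members. Its signals were 4978, 2176 and 4528 in ATHB15 controls and 4412 and 4909 in WOL controls, which overlap (log2 difference -0.34, SE 0.44, adjusted p = 0.762), and it was called present on all 15 arrays. rpoB, for the beta subunit, was called absent on both WOL control arrays and present on 3 of 15 arrays in all, with 31.7, 34.8 and 37.3 in ATHB15 controls and 27.5 and 70.7 in WOL controls, and gives no fold. That rpoA differed from the other members was not tested.

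Plastid ribosomal protein genes had a median of -1.79, with 6 of 15 called: rps15 (-3.12), rpl20 (-2.97), rpl33 (-2.81), rpl32 (-2.16), rpl16 (-1.96) and rps16 (-1.90). rpl33 had 59.5, 90.1 and 94.3 in ATHB15 controls and 594 and 724 in WOL controls (log2 difference -2.81, SE 0.40, adjusted p = 0.00293). The other 9 lay between -1.84 (rpl14) and -1.01. The smallest differences were those of rps3 (-1.01) and rps19 (-1.03), 2 genes of the same ribosomal protein cluster as rpoA, and neither was called.

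Among mitochondrial members, complex I, the entry point of electrons from NADH, had a median of -1.42 over its 15 probe sets, and 2 were called. nad9 (244943_at) had 39.7, 77.6 and 67 in ATHB15 controls and 255 and 236 in WOL controls (log2 difference -1.79, SE 0.33, adjusted p = 0.0118). The nad5 probe set 257338_s_at had 48.4, 57.4 and 49.6 in ATHB15 controls and 310.4 and 175 in WOL controls (log2 difference -1.88, SE 0.47, adjusted p = 0.0462). The other nad5 probe set was not called and overlapped, with 31.2, 68.6 and 75.8 in ATHB15 controls and 199 and 74.5 in WOL controls (-0.96). None of the 7 probe sets of nad1 was called. Of these 257322_at stood at -1.42, 257323_at, 257324_at and 257325_at were at least 2.18-fold, 2.89-fold and 2.28-fold higher in WOL controls, 257321_at was absent on both WOL control arrays, and 257327_at and 257329_at were called absent in both groups. nad6 (-1.59) and nad4L (-0.84) were not called either, and nad2 was absent in both groups. nad4 had the lowest difference of the mitochondrial members, -2.19, with widely spread arrays, 227, 681 and 1211 in ATHB15 controls and 4034 and 1776 in WOL controls (adjusted p = 0.0786). nad7 was called present on 0 of 15 arrays.

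In complex IV, which passes electrons to oxygen, cox1 (257333_at) was called, with 304, 506 and 621 in ATHB15 controls and 1996 and 2027 in WOL controls (log2 difference -2.10, SE 0.40, adjusted p = 0.014), and cox2, at least 2.12-fold higher in WOL controls, was not. Of the cytochrome c maturation genes ccmFN2 was called (at least 3.05-fold higher in WOL controls, adjusted p = 0.00901), while ccmFC, ccmB and ccmFN1 stood at -1.49, -1.16 and -0.79. mttB, for a membrane transport protein, was at -1.05 and not called, and matR, a maturase gene, was absent in both groups. The nuclear genome of Arabidopsis holds a near-complete copy of the mitochondrial genome on chromosome 2, so these probe sets cannot be told apart from transcripts of that copy where the sequences match.

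**Figure D3:**
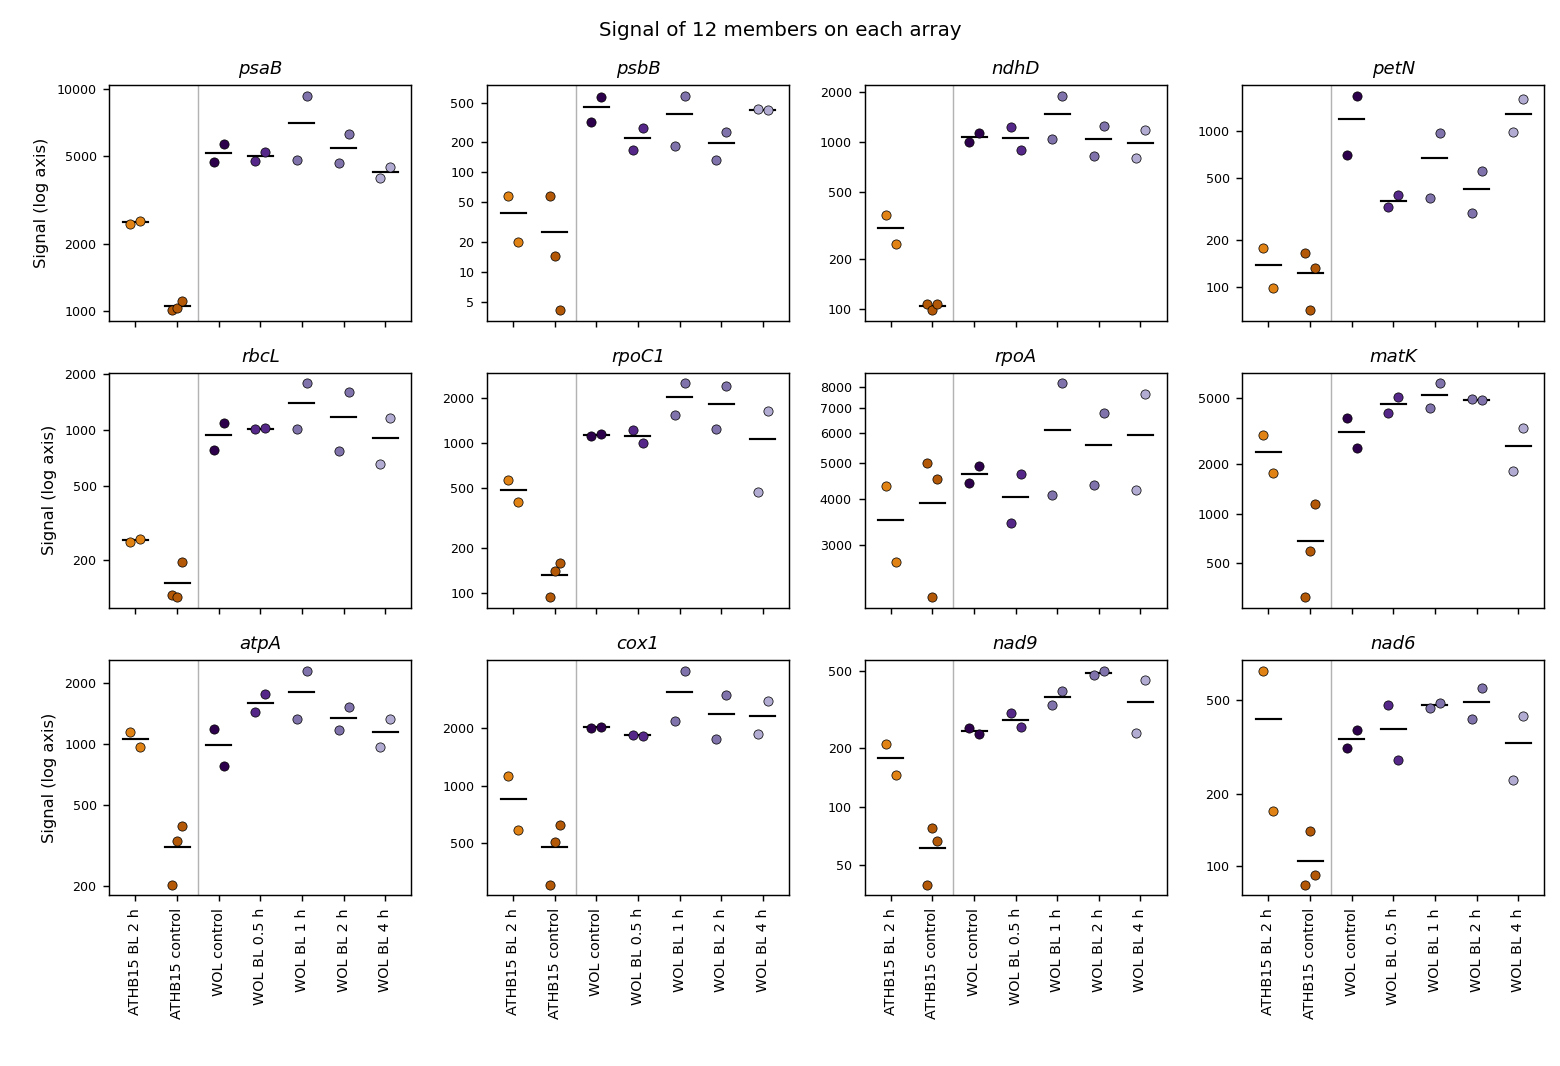
The signal of 12 members, on a log axis, is shown for each array (points) with the group mean (bars), ATHB15 groups left of the grey line and the WOL time course right of it. psaB, ndhD, petN and rbcL lie lower on all 5 ATHB15 arrays than on any WOL array, whereas rpoA overlaps.

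Which members were called depended on single arrays. The number called was 28 without ATHB15 control 1, 21 without ATHB15 control 2, 4 without WOL control A and 20 without WOL control B. The share of all probe sets called in these fits is not given here, so the falls are not read as particular to the members. psaB, petN, ndhD and atpH were called in every one of the 15 fits that leave out 1 array. The medians moved little over these fits, from -2.06 to -1.78 for plastid and from -1.40 to -1.16 for mitochondrial members. With the GAPDH 3′ to 5′ ratio as a covariate 21 members were called and with the same ratio of UBQ, a ubiquitin probe set, 39. The part of the ground tissue and epidermis markers in the result was not tested.

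Neighbouring genes that are transcribed together did not always differ alike. In the psbB cluster, psbB and psbT were absent throughout the ATHB15 controls and several times brighter in WOL controls, whereas psbH, petB and petD, the genes that follow them, stood at -1.46, -1.46 and -0.80. In the atpI, atpH, atpF and atpA cluster, atpH stood at -2.49, atpF at -1.17 and atpA at -1.63. The psbE cluster was even, with -1.89 for psbE, -2.03 for psbF, -2.16 for psbL and -1.69 for psbJ. The ribosomal protein cluster that ends in rpoA ran from -1.96 for rpl16 to -0.34 for rpoA, with -1.84 for rpl14, -1.30 for rpl36 and -1.29 for rpl22 between. Differences within a cluster were not tested, and dim probe sets show compressed differences on this scale.

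The same line comparison was made after 2 h of BL, a comparison added once the values were known. Here 35 of the 92 members were called lower in ATHB15 BL 2 h than in WOL BL 2 h, 31 plastid and 4 mitochondrial, and 0 higher, beside 8.36% of all probe sets called lower and 6.65% higher. The median was -1.35 for plastid and -1.03 for mitochondrial members, against 0.02 for all probe sets, and signals did not overlap, with ATHB15 lower, for 73 members, beside 26.8% of all probe sets. psaJ had the lowest difference, with 62.7 and 16.9 in ATHB15 BL 2 h and 463 and 687 in WOL BL 2 h (log2 difference -3.51, SE 0.68, adjusted p = 0.00433), followed by rps15 (-2.95). In psaI (-1.57) and psaB (-1.10) photosystem I fell as well, and in photosystem II psbZ (-2.56) and psbI (-1.79) did. psbA, psbB and psbT were absent on both ATHB15 BL arrays, and at least 5.72-fold, 3.9-fold and 3.98-fold higher in WOL BL 2 h. rbcL had 248 and 259 in ATHB15 BL 2 h and 771 and 1598 in WOL BL 2 h (log2 difference -2.06, SE 0.42, adjusted p = 0.00616), without overlap. The other plastid calls were petA (-1.43), petB (-1.29), petL (-1.78), ndhD (-1.71), ndhK (-2.14), atpF (-2.05), atpH (-1.27), rpoC1 (-1.81), accD (-2.17), ccsA (-1.29), cemA (-2.38), clpP (-1.35), rpl14 (-1.91), rpl20 (-2.27), rpl33 (-2.12), rps4 (-2.08) and rps16 (-1.65). petG, ndhE, ndhG and ndhJ were also called, and were at least 3.14-fold, 5.04-fold, 2.95-fold and 5.35-fold higher in WOL BL 2 h. atpA (-0.34) and ndhA (0.24) were not called, with 132 and 119 for ndhA in ATHB15 BL 2 h and 72.3 and 145 in WOL BL 2 h. cox1 (-1.48), cox2 (-1.52), nad9 (-1.41) and mttB (-1.91) were the 4 mitochondrial calls. Leaving out ATHB15 BL 2 h 1 gave 23 calls, ATHB15 BL 2 h 2 gave 3, WOL BL 2 h A gave 20 and WOL BL 2 h B gave 3. There were 0 calls with the UBQ ratio as a covariate, whose values were 5.99 and 9.07 on the ATHB15 BL arrays and 3.79 and 4.90 on the WOL BL 2 h arrays. Markers of other cell types differed here too: JKD and SGN3 summed to 35.8 and 36 on the ATHB15 BL arrays, and to 149.4 and 290.0 on the WOL BL 2 h arrays. EXP7 lay between 5.0 and 56.1 on the ATHB15 BL arrays and between 228.6 and 492.1 on the WOL BL 2 h arrays, and the vascular gene LHW between 1745 and 2291 on the ATHB15 BL arrays and between 669 and 894 on the WOL BL 2 h arrays. Their part in the result was not tested.

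Over all conditions, every ATHB15 array lay below every WOL array for 46 of the 92 members, 42 plastid and 4 mitochondrial, and above for 0. Of all probe sets 5.28% met the first pattern and 4.28% the second. The 4 mitochondrial members were nad4, nad9, cox1 and mttB. By complex the pattern held for 11 of 15 photosystem II genes, 6 of 10 NDH genes, 8 of 15 ribosomal protein genes and 1 of 4 polymerase genes, rpoC2.

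BL treatment of provascular cells was examined next, with 2 h of BL set against the ATHB15 controls. The members were mostly higher in the mean: 81 of 92 had a positive log2 difference, with a median log2 difference of 0.46 for plastid and 0.73 for mitochondrial members against -0.03 for all probe sets, of which 47.7% were higher. Only atpA passed the test, a call lost with an offset of 1 and with either RNA ratio as a covariate, while 4 members were called with median centring and 7 with the presence filter. Its signals were 1149 and 966 in ATHB15 BL 2 h and 203, 334 and 395 in ATHB15 controls (log2 difference 1.76, SE 0.36, adjusted p = 0.0322), so both treated arrays lay above all 3 controls and close to the 1176 and 1522 of WOL BL 2 h. Among all probe sets 0.352% were called higher and 0.761% lower. A further 22 members were higher at an unadjusted p under 0.05, 23 with atpA, beside 6.11% of all probe sets, and psaJ was lower.

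The signals of the groups did not overlap for 33 members, a share little above the 31.3% of all probe sets in either direction. BL was the higher group for all of these members but psaJ and petG. The share of all probe sets that were higher with BL and without overlap is not given here, so this direction is not read as a result about the members. The largest differences not called were those of matK, the nad5 probe set 257338_s_at (1.91), rpoC1 and rpl16. matK had 2982 and 1760.5 in ATHB15 BL 2 h and 311, 597 and 1139.7 in ATHB15 controls (log2 difference 1.91, SE 0.47, adjusted p = 0.0678). rpoC1 had 572 and 408 in ATHB15 BL 2 h and 93.9, 142 and 159.7 in ATHB15 controls (log2 difference 1.79, SE 0.46, adjusted p = 0.0802). Both genes act in plastid gene expression. rpl16 had 2828 and 2823 in ATHB15 BL 2 h, 2 nearly equal values, and 438, 1311 and 1285 in ATHB15 controls (log2 difference 1.62, SE 0.49, adjusted p = 0.134).

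psaB, with 2472 and 2546 in ATHB15 BL 2 h and 1010.3, 1034 and 1105 in ATHB15 controls, missed the threshold (log2 difference 1.25, SE 0.31, adjusted p = 0.0731), as did ndhD, with 364 and 247 in ATHB15 BL 2 h and 107, 98.1 and 107 in ATHB15 controls (log2 difference 1.40, SE 0.34, adjusted p = 0.0681). For both genes the treated arrays lay above the controls and below all 10 WOL arrays. The lowest difference was that of psaJ, 62.7 and 16.9 in ATHB15 BL 2 h and 256, 86.7 and 76.5 in ATHB15 controls (log2 difference -1.43, SE 0.62, adjusted p = 0.315), where 1 control array was far above the others. Next lowest among members with a measured level were atpF (-0.20), rpoA (-0.10), petL (-0.01) and rpl22 (0.06), none called. petG was absent on both treated arrays and at least 1.56-fold higher in the controls, and psbA, psbB, psbT and ndhJ were absent in both groups. By complex, the median was highest for cytochrome c maturation (1.07 over 4 members) and the other plastid genes (0.93 over 8, all higher) and lowest for matR and mttB (0.07) and cytochrome b6f (0.16 over 6).

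**Figure D4:**
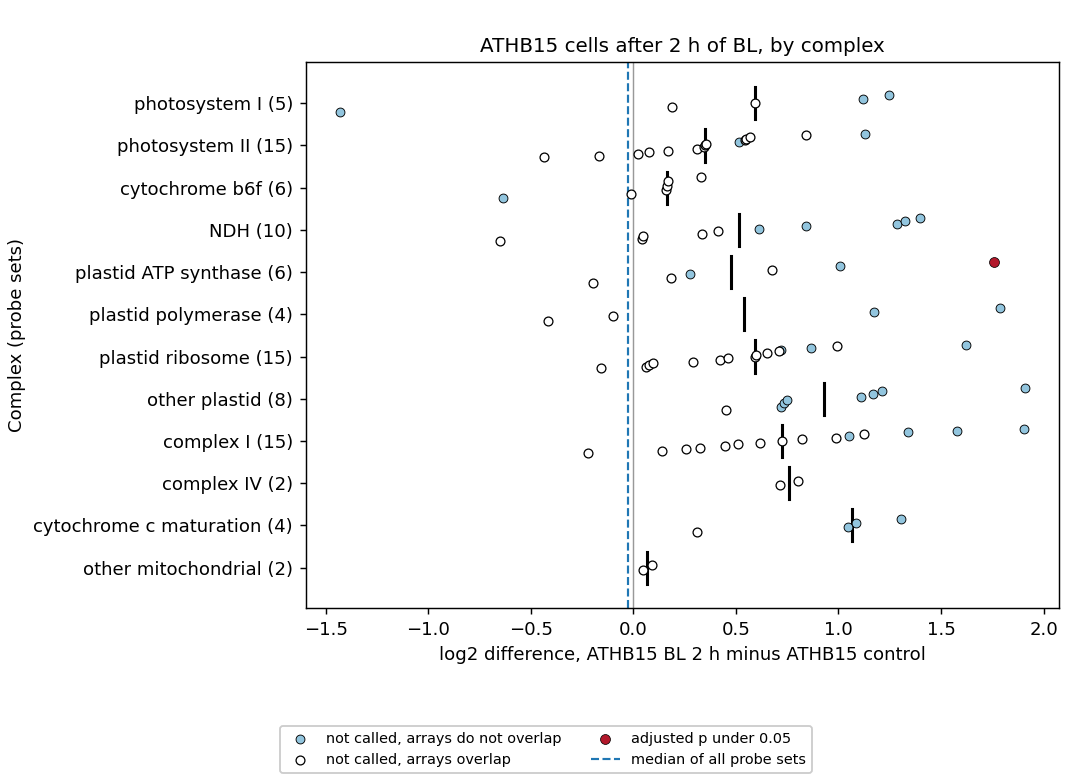
Points are probe sets by complex, and the horizontal axis is the log2 difference between ATHB15 BL 2 h and the ATHB15 control. The filled red point is atpA, blue points are members with no overlap between the signals of both groups, and short bars are medians. Most points lie right of the dashed line, the median of all probe sets.

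The 2 treated arrays were unlike in their mitochondrial members. ATHB15 BL 2 h 2 was below ATHB15 BL 2 h 1 in 22 of 23, with a median log2 gap of -0.995, against -0.31 for plastid members and -0.15 for all probe sets. Relative to the WOL control mean, the mitochondrial median was 0.02 on ATHB15 BL 2 h 1 and -1.07 on ATHB15 BL 2 h 2. nad6, for example, had 661 and 169 in ATHB15 BL 2 h and 83.1, 140.4 and 91.2 in ATHB15 controls (log2 difference 1.58, SE 0.47, adjusted p = 0.132). Without ATHB15 BL 2 h 1 the mitochondrial median was 0.21, and without ATHB15 BL 2 h 2 it was 1.26. The call of atpA was kept in 8 of the 15 fits that leave out 1 array, with adjusted p from 0.0282 to 0.195. The UBQ ratio, given above for the treated arrays, ranged over 4.01 to 4.85 in ATHB15 controls, and 0 members were called with it as a covariate. The GAPDH ratio was 2.23 on ATHB15 BL 2 h 1 and 1.09 on ATHB15 BL 2 h 2. Actin ratios were 20.3 on ATHB15 BL 2 h 1 and 5.68 on ATHB15 BL 2 h 2. The part of the GAPDH and actin ratios in the gap between the treated arrays was not tested.

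The BL change at 2 h was next compared between the lines, ATHB15 minus WOL, and the difference was called for 0 of the 92 members in limma, beside 0.127% of all probe sets. For 9 members it had an unadjusted p under 0.05 and was positive, beside 6.76% of all probe sets. Its median was 0.61 for plastid and 0.38 for mitochondrial members, against 0.09 for all probe sets. Among members with a measured level in all 4 groups the largest were ndhA (1.81, adjusted p = 0.248), ndhI (1.74) and ycf3 (1.60), and the lowest psaJ (-1.65), atpF (-0.88) and mttB (-0.86). ndhA had 132 and 119 in ATHB15 BL 2 h and 39.1, 37 and 45.8 in ATHB15 controls, while it had 72.3 and 145 in WOL BL 2 h and 161 and 142 in WOL controls.

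In stele cells the BL time course gave 0 calls among the members and 0 among all 22746 probe sets at each of the 4 times in limma. At 0.5, 1, 2 and 4 h an unadjusted p under 0.05 was reached by 2, 4, 4 and 0 of the 92 members, beside 9.04%, 6.64%, 6.62% and 8.37% of all probe sets. The plastid median was -0.30, 0.40, 0.00 and 0.01, and the mitochondrial median 0.08, 0.45, 0.57 and 0.01, while that of all probe sets stayed between -0.11 and -0.05. The 4 comparisons share the same 2 control arrays.

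For plastid members the replicates at 1, 2 and 4 h lay further apart than the times from the control. At 1 h, 66 of 69 plastid members were higher on WOL BL 1 h B than on WOL BL 1 h A, with a median log2 gap of 1.26, and the members held 2.16% of the summed signal on that array, the most of the 15. The gap was 0.64 at 2 h and 0.73 at 4 h, again with B higher in 65 and 67 of 69. It was 0.12 at 0.5 h and 0.13 in the controls, with B higher in 44 and 43 of 69. For mitochondrial members the gap was 0.44 at 1 h, 0.57 at 2 h and 0.75 at 4 h, about as large as their median difference from the control at 1 and 2 h and larger at 4 h. Their gap was 0.05 at 0.5 h and 0.23 in the controls, again with B higher. Without WOL BL 1 h B the plastid median at 1 h was -0.21, and without WOL BL 1 h A it was 1.00. The UBQ 3′ to 5′ ratio of WOL BL 1 h B was 2.91, the lowest of all arrays, and its part in this gap was not tested.

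A few photosynthesis genes had the lowest values at the early times. petN had 705 and 1684 in WOL controls, 324 and 387 at 0.5 h, 372 and 974 at 1 h, 300.3 and 555 at 2 h and 982 and 1608 at 4 h. It was low on both arrays at 0.5 h (log2 difference -1.58, SE 0.55, adjusted p = 0.516) and 2 h (log2 difference -1.38, SE 0.55, adjusted p = 0.704), and back at the control level at 4 h. psaC ran alike, with 225 and 566 in WOL controls, 110.2 and 124 at 0.5 h, 142 and 326 at 1 h, 102 and 249 at 2 h and 287 and 576 at 4 h. For both genes WOL control B was far above WOL control A. rps14, a ribosomal protein gene next to psaB, had 84.3 and 317 in WOL controls, the widest such gap of these genes, 62.7 and 81.2 at 0.5 h and 42.7 and 109 at 2 h, so its arrays at 0.5 h lay near WOL control A. Its log2 differences were -1.06, -0.62, -1.09 and -0.07 at the 4 times. ndhF stood at -1.38, -0.58, -1.04 and 0.66, and psbB at -0.94, -0.37, -1.15 and -0.02, again with WOL control B above WOL control A. The GAPDH 3′ to 5′ ratio was 1.47 and 1.24 at 0.5 h, below the 2.71 and 4.66 of WOL controls. The actin ratio was 17.8 and 24.6 against 28.4 and 48.3, while the UBQ ratio overlapped (4.42 and 6.50 against 5.07 and 7.43). EXP7 had 525 and 587 at 0.5 h and 294.6 and 88.5 in WOL controls, while LHW and the ground tissue sum overlapped. The part of these ratios and markers was not tested.

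accD was higher in the mean at every time, with 836 and 491 in WOL controls, 1309 and 1121 at 0.5 h, 1089 and 2926 at 1 h, 1161 and 1454 at 2 h and 545 and 842 at 4 h. Both arrays at 0.5, 1 and 2 h lay above both controls, and its largest value was at 1 h (log2 difference 1.46, SE 0.49, adjusted p = 0.693). Among mitochondrial members nad9 had 255 and 236 in WOL controls, 305 and 257 at 0.5 h, 336 and 397 at 1 h, 481 and 503 at 2 h and 242 and 449 at 4 h, highest and closely paired at 2 h (log2 difference 0.96, SE 0.36, adjusted p = 0.697). cox2, at 0.53, 0.88, 1.15 and 0.25, and mttB, at 0.42, 1.08, 0.95 and -0.10, were higher up to 2 h as well. The nad5 probe set 257337_at stood at 0.64, 1.02, 0.99 and 0.92, the highest of all measured members at 4 h. Its signals were 199 and 74.5 in WOL controls and 206 and 297 at 4 h. The other nad5 probe set, 257338_s_at, overlapped at 4 h, with 161 and 328 against 310.4 and 175 in WOL controls. None of these was called.

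By complex, the arrays at 2 h were unlike. Of the 10 NDH genes 0 were above the WOL control mean on WOL BL 2 h A (median -0.83) and 6 on B (0.13). Of the 15 photosystem II genes 1 was above it on A (-0.70) and 6 on B (-0.07), and of the 15 plastid ribosomal protein genes 5 on A (-0.10) and 14 on B (0.60). Mitochondrial members were above it in 19 of 23 on A (0.17) and 21 of 23 on B (0.85). On each array the photosystem II median, relative to the WOL control mean, minus the ribosomal protein median was -0.16 and 0.16 in the controls, -0.42 and -0.58 at 0.5 h, -0.42 and -0.16 at 1 h, -0.60 and -0.67 at 2 h and 0.37 and -0.14 at 4 h. This measure was chosen after its values were seen and was not tested. Photosystem II stood below the ribosomal protein genes on all 6 arrays from 0.5 to 2 h, though on 1 of them, WOL BL 1 h B, by the same -0.16 as in WOL control A, and at 4 h it stood above them on 1 of the 2 arrays.

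**Figure D5:**
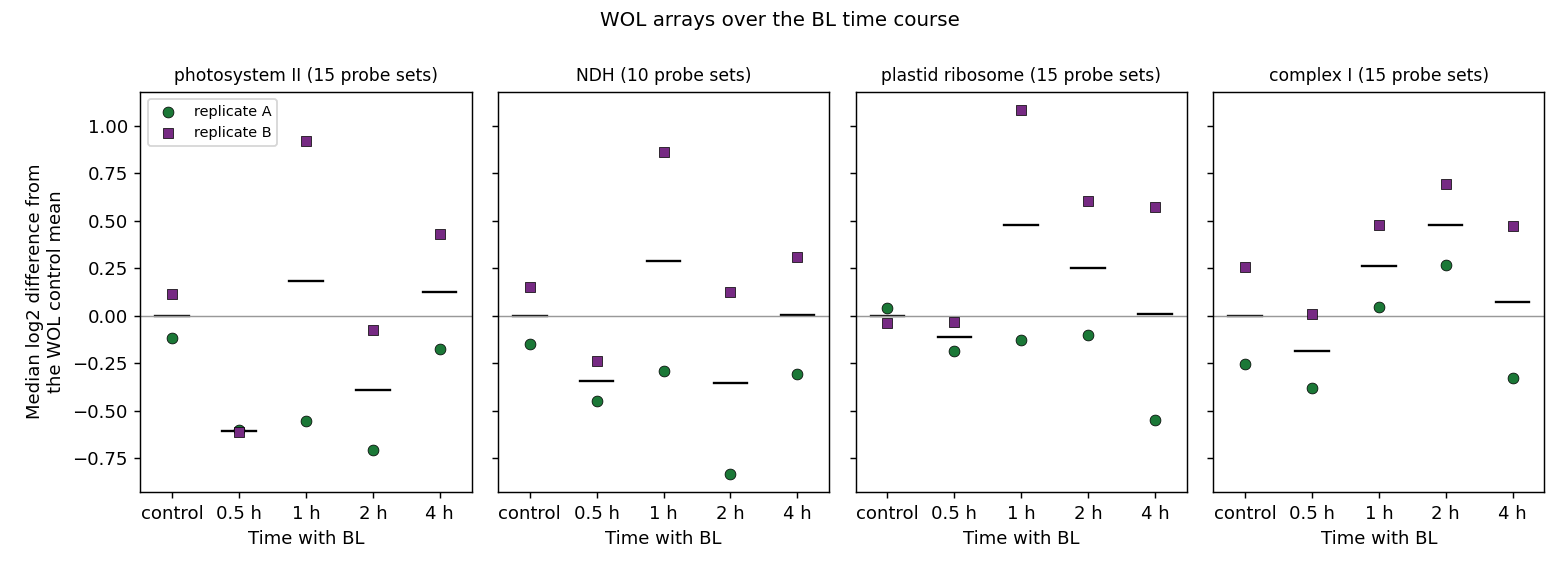
Each panel gives, for 1 complex, the median over its probe sets of the log2 difference from the WOL control mean, per array, against time with BL. Circles are replicate A, squares replicate B and bars their mean. At 1, 2 and 4 h replicate B lies above replicate A in all 4 panels.

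The nuclear genome encodes the remaining subunits of these complexes, of which few have a named probe set here. Of 40 nuclear genes of photosystems and light harvesting 7 were measured, but 6 of the 7 were called present on 0 to 3 of the 15 arrays, so no direction is read from the list. ATPC1, for the gamma subunit of the plastid ATP synthase, passed the test, with 34.3, 7.1 and 15.3 in ATHB15 controls and 113 and 107 in WOL controls (adjusted p = 0.0437), though it was called present on 2 of 15 arrays. LHCB4.1, for a light-harvesting protein of photosystem II, was called present on 10 arrays, with 174, 84.7 and 171 in ATHB15 controls and 54.4 and 108 in WOL controls (0.71, not called). In ATHB15 BL 2 h it had 27 and 27.9, not called against the ATHB15 controls (log2 difference -1.81, SE 0.47, adjusted p = 0.0776).

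Of 30 nuclear genes of the mitochondrial respiratory chain 11 were measured on 12 probe sets, of which 1 for SDH2-1 was present on 0 of 15 arrays. None was called between the controls, where 7 probe sets were higher and 5 lower in ATHB15 controls than in WOL controls, with a median of 0.06. The cytochrome c gene CYTC1 had 6837, 8847 and 8893 in ATHB15 controls and 8157 and 7497 in WOL controls (0.06). Its paralog CYTC2 was -0.71 in the controls. Between the lines after 2 h of BL, 2 of the 12 probe sets were called lower in ATHB15 and 0 higher. Of all probe sets 8.36% were called lower there. CYTC2 was 1 of the 2, with 319.9 and 305 in ATHB15 BL 2 h and 1409 and 1559 in WOL BL 2 h (log2 difference -2.19, SE 0.35, adjusted p = 0.00141). Of 32 nuclear genes for organelle transcription and RNA processing 2 were measured, RPOTMP, a phage-type polymerase called present on 0 of 15 arrays, and MTPNP, a mitochondrial RNA-degrading enzyme. MTPNP had 336, 345 and 337 in ATHB15 controls and 110.1 and 277 in WOL controls (log2 difference 0.89, SE 0.40, adjusted p = 0.307), and was not called. Of 9 genes of organelle stress signalling to the nucleus only UPOX was measured, present on 2 of 15 arrays and called in 0 comparisons.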

How the data were processed

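RNA from sorted root protoplasts was amplified by the two-cycle Affymetrix protocol, labelled with biotin and hybridised to 15 ATH1 arrays, 1 per sample, per the labels' protocols. The deposited table gives a signal intensity, a detection call and a detection p-value per probe set, per the file headers. The signals are linear, with the same trimmed mean of 250 on every array, and the sources used here do not give the software. Of 22810 probe sets 64 controls were left out. Through the platform annotation 13513 of the other 22746 had 1 gene, 503 several and 8730 none. From these signals log2(signal + 16) was computed and fitted with limma 3.58.1 in R 4.3.3 (lmFit, eBayes, two-sided), with 1 mean for each of 7 groups (8 residual and 6.34 prior degrees of freedom). Probe sets were called at a Benjamini-Hochberg adjusted p under 0.05 over all 22746. A log2 difference is on this scale, which understates changes of dim probe sets.

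Organelle members are the probe sets annotated to 1 plastid or mitochondrial gene. 8 plastid probe sets of genes annotated more than once in the plastid genome were left out. Named are the called members, the extremes of each complex and comparison among detected members, and landmark genes. The members and lists were chosen with earlier results of these data known. The labels do not say whether replicates are separate cultures, so p-values measure the spread between these arrays, which may be technical. Alternatives were an offset of 1 or 64, quantile normalisation, median centring, a presence filter, a replicate block, RNA ratios as covariates and each array left out. Names follow RefSeq symbols. Protein and promoter sequences were not used here.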

Additional observations from a re-analysis of the deposited data

How the results depend on the processing

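The number of members called lower in ATHB15 controls than in WOL controls was 45, and 22 with an offset of 1, 28 with an offset of 64, 16 with the replicate block and 21 with the GAPDH ratio as a covariate; it ranged from 4 to 49 when 1 array was left out. The plastid median stayed between -2.06 and -1.78 over those fits and the mitochondrial median between -1.40 and -1.16, though an offset of 1 gave -1.66. After BL, the number lower in ATHB15 than in WOL was 35, and 15 with an offset of 1, 14 with the replicate block, 19 with the GAPDH ratio and 0 with the UBQ ratio, with 3 to 36 when 1 array was left out, plastid medians of -1.73 to -1.02 and mitochondrial medians of -1.65 to -0.42. For ATHB15 BL 2 h against its control, 1 member was called, and 0 with an offset of 1, the replicate block, or either ratio, 2 with an offset of 64, 4 with median centring, 7 with the presence filter, and 0 to 3 with 1 array left out. Its medians then ran from 0.29 to 0.70 (plastid) and from 0.21 to 1.26 (mitochondrial). The median difference between the lines' BL changes was 1.41 for plastid members with the UBQ ratio, and with 1 array left out 0.27 to 0.95 for plastid and -0.15 to 0.77 for mitochondrial members. In the WOL time course 0 members were called under all alternatives run. The mitochondrial median at 0.5 h was 0.55 with the GAPDH ratio, and the plastid median at 1 h ran from -0.21 to 1.00 with 1 array left out. At 2 h the plastid median ran from -0.38 to 0.38 and the mitochondrial one from 0.17 to 0.85, and at 4 h they ran from -0.31 to 0.46 and from -0.33 to 0.46. Shares of all probe sets called under the alternatives are not given here or above, so these counts of members have no background. The cause of these shifts was not tested. The labels do not say that replicate letters or numbers mark a shared batch. Deviations of same-lettered WOL arrays correlated at -0.19 to 0.42, over 0.1 for 4 of the 10 pairs of groups, and those of same-numbered ATHB15 arrays at -0.04 and 0.06, so a pairing is not established, and values are without the block unless it is named. Members of both genomes had a median gap with replicate B above A in every WOL group, and its cause was not tested. Where a member was called absent throughout a group, its signal there gives only a bound.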

Other observations

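Plastid genes annotated more than once in the plastid genome stood outside the members, on 8 probe sets for rps12 (2 probe sets), rpl2, rpl23, ycf2, ndhB, rps7 and ycf1. All 8 had a lower mean in ATHB15 controls than in WOL controls, with a median log2 difference of -1.70. Of these 4 were called lower, beside 2.69% of all probe sets. After 2 h of BL, all 8 were lower in ATHB15 than in WOL cells, with a median of -1.25. Only 1 of the 8 was called, beside 8.36% of all probe sets called lower. In ATHB15 BL 2 h against its control 6 of 8 were higher, with a median of 0.62 and none called.

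The genes whose identifiers begin with AT2G076 or AT2G077 lie in the stretch of chromosome 2 that resembles the mitochondrial genome, and 37 probe sets are annotated there, of which 16 were called present on 0 of the 15 arrays. In ATHB15 controls 30 of the 37 were lower than in WOL controls, with a median log2 difference of -0.86 and 2 called lower, beside 2.69% of all probe sets. In ATHB15 BL 2 h against its control 29 of 37 were higher, with a median of 0.32 and none called. AT2G07741, for example, had signals of 1150.5 and 316 in ATHB15 BL 2 h and 175, 160.0 and 159.6 in ATHB15 controls. It had 775 and 788 in WOL controls.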
